A study of Rattus norvegicus with 18 samples.

Results

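The genes described here code for the contractile apparatus of skeletal muscle, its calcium handling and its energy supply, and they were measured in subcutaneous abdominal fat of rats. The members were named as 43 gene symbols. All probe sets annotated to 1 of these symbols alone were taken, which gave 62 probe sets of 42 genes among the 14217 genes named on the array. The remaining symbol, Actc1, cardiac actin, had no probe set of its own and enters no signal value here. The genes were chosen by their fat signals, which had been seen to be high in RYGB-Fail against Pair-Fed, so the fat values of the members are given as a description and no test of them is read. Hypothalamus of the same groups, which the choice did not use, served as the contrast in which the members were tested.

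Signal was measured on 18 single-colour arrays, 9 from fat and 9 from hypothalamus, with 3 arrays for each of 3 groups in each tissue. The abbreviation RYGB stands for the Roux-en-Y form of gastric bypass. It routes food from a reduced stomach past the upper small intestine. RYGB-Success rats were losing weight after the bypass, RYGB-Fail rats were gaining weight, and Pair-Fed rats were given the amount of food that the treated rats ate. No strain, sex, age or genotype was named in the labels, nor how the fat was dissected or whether Pair-Fed rats had an operation. The design text calls the 3 RNA samples of a group biological replicates.

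Striated muscle contracts when myosin heads of the thick filament pull on actin of the thin filament. Calcium released from the sarcoplasmic reticulum through the ryanodine receptor binds troponin C and frees the thin filament, and a calcium pump then returns the calcium to the store. Fast fibres and slow fibres build the same machine from different gene copies, so that troponin, the myosin light chains, myosin-binding protein C, the pump and calsequestrin each have a fast and a slow form. Adipocytes are not known for this apparatus, and it is not a usual part of a fat expression profile.

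The members were high in RYGB-Fail fat, and far more so on 1 array than on the others. Over the 42 genes, each read from its probe set with the highest mean in fat, the mean log2 signal was 5.63, 6.12 and 5.22 on the Pair-Fed arrays and 6.23, 5.996 and 7.21 on the RYGB-Success arrays. On the RYGB-Fail arrays it was 9.90, 12.97 and 7.84. All 3 RYGB-Fail arrays thus lay above every Pair-Fed and RYGB-Success array, and they differed from each other by more than the other 6 did. The mean difference between RYGB-Fail and Pair-Fed was 4.58 ± 1.27 (SE, 3 arrays a group) on the log2 scale, with a median of 4.77 beside -0.05 over all probe sets. Here and below, the SE of a difference uses the spread pooled over the 3 groups, not that of the 2 groups compared. For the member mean this makes the SE of RYGB-Fail against Pair-Fed too small, because the RYGB-Fail arrays differed most from each other. All 42 genes had a higher mean in RYGB-Fail, from 0.14 for Myh1 to 8.41 for Myoz1, and 38 of them by at least 2. For Myh1 and Ldb3 the direction rested on 1 array, with -0.24 for Myh1 without RYGB-Fail 3 and -0.35 for Ldb3 without RYGB-Fail 2. Among the 62 member probe sets the RYGB-Fail arrays all exceeded the Pair-Fed arrays in 34, where 2.87% of all 31042 probe sets did so, and 47 had a mean at least 2 higher, where 2.92% of all did. The contrast chose the members, so nothing is read from these counts.

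**Figure D1:**
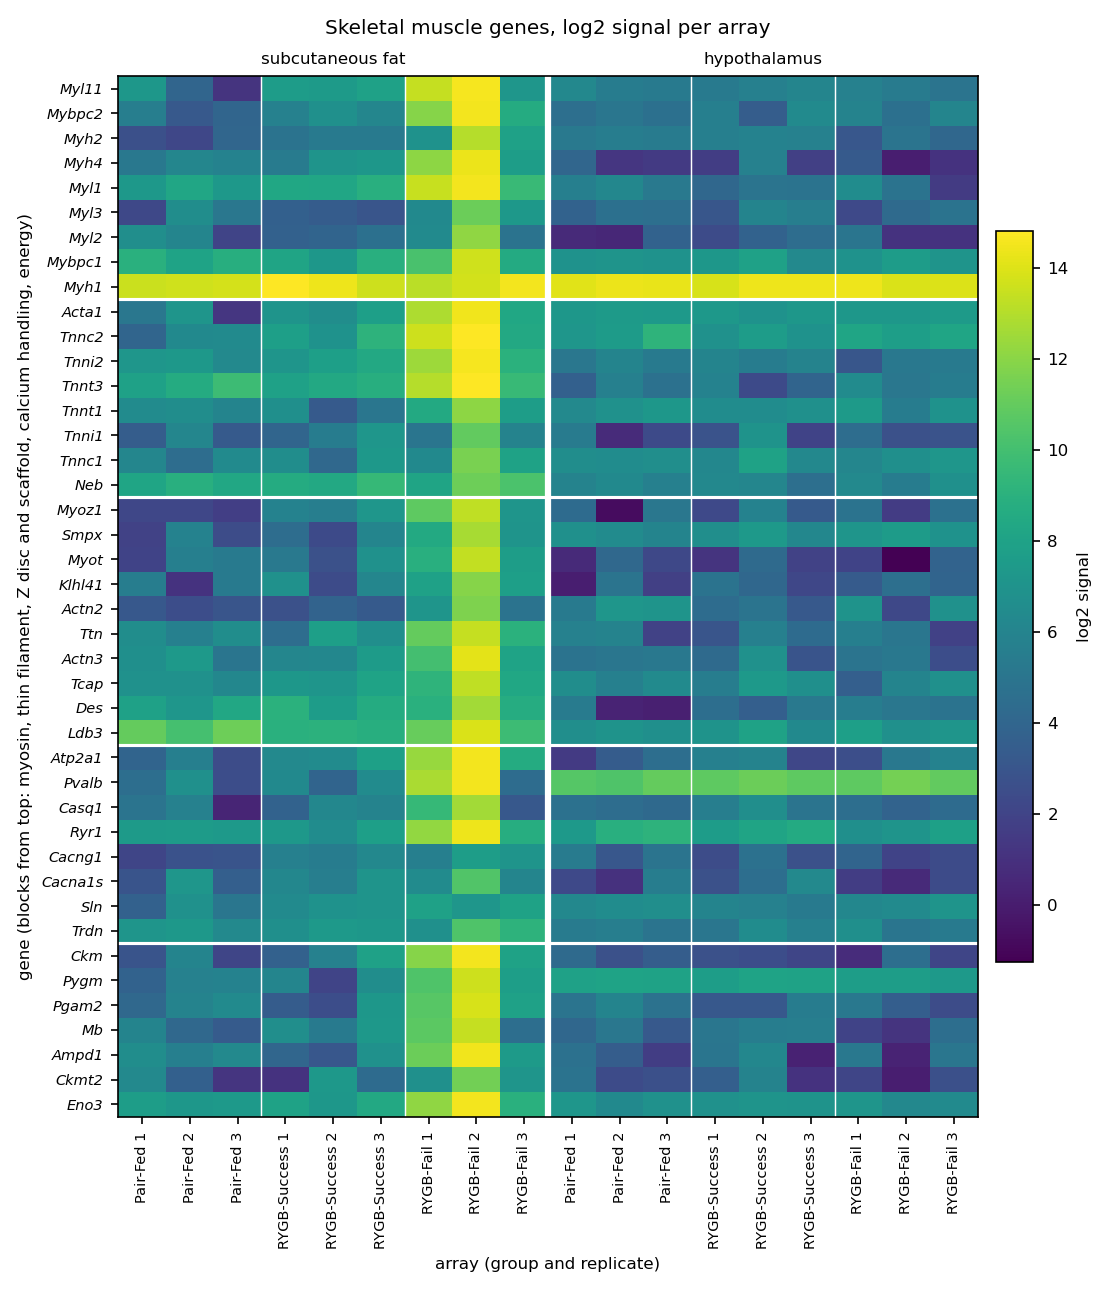
Heat map of the log2 signal of 42 skeletal muscle genes, 1 row a gene in 5 role blocks, on 9 fat arrays (left) and 9 hypothalamus arrays (right). The columns of RYGB-Fail 1 and RYGB-Fail 2 fat stand out, and the Myh1 row is bright on all 18 arrays. RYGB-Fail 3 is dimmer than these 2 columns, with a mean of 7.84 beside 5.22 to 6.12 on the Pair-Fed arrays.

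The baseline was low. In Pair-Fed fat the geometric mean signal of 30 of the 42 genes lay under 88.9, the lowest mean signal with which a fat probe set entered the tests, and only Myh1, Myl1, Mybpc1, Neb, Tnnt3, Des and Ldb3 had a Pair-Fed mean over 200. Log2 differences from such low signals are open to noise at the bottom of the scale. Folds are therefore also given as at least N-fold, with every signal held at no less than 88.9, which is a working floor and not a limit of detection. Held in this way, the mean RYGB-Fail minus Pair-Fed difference over the 42 genes was 3.26.

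The arrays differed in brightness. Their trimmed mean had been set to 500 by the authors, while median signals ran from 98.2 to 200.04 on the other 8 fat arrays and stood at 288 on RYGB-Fail 3. On RYGB-Fail 3, 51.8% of all probe sets exceeded every Pair-Fed array, so that its 32 of 42 members above every Pair-Fed array stand beside a high general share. With each array centred on its median this share was 26.3% and the members numbered 26 of 42. The same counts were 33 of 42 (15.7% of all probe sets) on RYGB-Fail 1 and 41 of 42 (19.1%) on RYGB-Fail 2, and after centring 37 (36.5%) and 42 (33%). The part of brightness in the RYGB-Fail 3 values was not tested further.

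The 250 bases upstream of the annotated start are shown for 4 members, because all 4 were high on RYGB-Fail 2 and they span actin, the Z disc and a fast and slow pair. They were taken from the RefSeq table of build GRCr8, which held 36 of the 43 member genes, Actc1 among them with 0 matches. Capitals mark matches, on either strand, to the E-box CANNTG, the M-CAT element CATTCC, the MEF2 site or the CArG box, motifs known from muscle promoters. Acta1 lies at chr19:68784195-68784444 on the minus strand, Myoz1 at chr15:3693363-3693612 on the plus strand, Tnni2 at chr1:207024240-207024489 on the plus strand and Tnni1 at chr13:49781279-49781528 on the plus strand.
Acta1: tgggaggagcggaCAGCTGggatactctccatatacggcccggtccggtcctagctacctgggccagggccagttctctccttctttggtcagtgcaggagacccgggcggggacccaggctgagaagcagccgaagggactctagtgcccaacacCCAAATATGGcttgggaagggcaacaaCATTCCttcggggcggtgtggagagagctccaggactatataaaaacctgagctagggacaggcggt
Myoz1: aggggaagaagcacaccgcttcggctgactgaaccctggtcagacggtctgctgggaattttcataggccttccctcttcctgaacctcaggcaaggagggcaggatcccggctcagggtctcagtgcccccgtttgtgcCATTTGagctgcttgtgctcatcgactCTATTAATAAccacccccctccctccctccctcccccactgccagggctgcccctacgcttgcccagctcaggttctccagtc
Tnni2: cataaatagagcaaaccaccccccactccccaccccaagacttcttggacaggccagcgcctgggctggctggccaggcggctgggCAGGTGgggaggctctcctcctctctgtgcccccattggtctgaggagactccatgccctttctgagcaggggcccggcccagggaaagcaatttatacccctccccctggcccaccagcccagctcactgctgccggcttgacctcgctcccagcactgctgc
Tnni1: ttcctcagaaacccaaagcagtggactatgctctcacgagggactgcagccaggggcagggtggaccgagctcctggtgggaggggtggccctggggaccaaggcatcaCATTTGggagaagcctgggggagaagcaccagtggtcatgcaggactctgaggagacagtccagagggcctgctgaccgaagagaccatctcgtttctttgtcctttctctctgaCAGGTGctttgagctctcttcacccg
An E-box was present in 30 of the 36 upstream windows (83.3%), beside 65.2% of the 27457 windows of all genes in the table. A MEF2 site was present in 7 (19.4% beside 3.07%), a CArG box in 4 (11.1% beside 1.5%) and an M-CAT element in 8 (22.2% beside 11.8%). No matches of different motifs overlapped in any member window (0 of 36). Of the windows printed, Acta1 holds an E-box, a CArG box and an M-CAT element, Myoz1 an E-box and a MEF2 site, and both troponin I genes E-boxes alone. These are letter matches in a window and not binding sites.

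Myosin genes form the thick filament. Apart from Myh1, the 9 genes of this group had differences between RYGB-Fail and Pair-Fed of 2.20 to 7.61, and the mean over all 9 was 4.53. Myh4, the heavy chain of the fastest fibres, had signals of 37.0, 68.3 and 58.9 on the Pair-Fed arrays, 43.6, 133 and 152 on the RYGB-Success arrays and 4380, 21106 and 207 on the RYGB-Fail arrays. The RYGB-Fail arrays all lay above the other groups, RYGB-Fail 3 by little. Myh2, a fast oxidative heavy chain, had 6.39, 4.51 and 16.8 in Pair-Fed and 29.5, 39.5 and 40.1 in RYGB-Success, and 123, 8417 and 249 in RYGB-Fail. All RYGB-Fail arrays lay above the other groups, by a wide margin on the second alone.

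Light chains and myosin-binding protein C separated most by fibre type on RYGB-Fail 1, while on RYGB-Fail 2 the slow forms were high too. Myl11, the fast regulatory light chain, had 152, 16.2 and 2.27 in Pair-Fed, 202, 181 and 245 in RYGB-Success and 10999, 25479 and 149 in RYGB-Fail. Myl2, its slow counterpart, had 102, 66.2 and 4.03, then 13.2, 14.9 and 25.6, and in RYGB-Fail 86.3, 4641 and 28.9. On RYGB-Fail 1 the fast chain was thus at least 104-fold over Pair-Fed, while the slow chain stayed within the Pair-Fed range of signals. Relative to the array medians, the slow chain lay just above that range.

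Myl1, the fast essential light chain, had 162, 311 and 159 in Pair-Fed, 323, 305 and 484 in RYGB-Success and 11446, 23748 and 808 in RYGB-Fail, without overlap between RYGB-Fail and the rest. Myl3, the slow and cardiac essential light chain, had 4.70, 100.3 and 35.5 in Pair-Fed, 12.7, 10.6 and 8.01 in RYGB-Success and 83.8, 2386 and 157 in RYGB-Fail. The first RYGB-Fail array again lay inside the Pair-Fed range of signals for the slow form, and above it relative to the array medians.

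Mybpc2, fast myosin-binding protein C, which ties myosin to the filament backbone, had 49.96, 9.30 and 15.9 in Pair-Fed, 55.4, 114 and 69.0 in RYGB-Success and 3906, 24048 and 395 in RYGB-Fail. Mybpc1, the slow form, was already at 497, 270.4 and 461 in Pair-Fed and at 285, 152 and 471 in RYGB-Success, and reached 1187, 13197 and 380.2 in RYGB-Fail. RYGB-Fail 3 overlapped with Pair-Fed for Mybpc1 and not for Mybpc2. The RYGB-Fail minus Pair-Fed difference was 7.42 ± 1.54 for Mybpc2 and 2.20 ± 1.31 for Mybpc1 (SE, 3 arrays a group).

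Myh1, a fast heavy chain, did not follow the other members. Its 5 probe sets had signals of 1725 to 28508 in fat and 5814 to 24934 in hypothalamus, over 1000 on all 18 arrays. The brightest gave 11944, 13085 and 14074 in Pair-Fed fat and 9077, 13290 and 24222 in RYGB-Fail fat, a difference of 0.14 ± 0.44. Which transcript these probe sets read was not tested, and values that leave Myh1 out are given beside those that include it.

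By log2 difference, thin filament genes were led by Acta1, skeletal actin. It had 34.1, 138 and 2.49 in Pair-Fed, 132, 98 and 227 in RYGB-Success and 7320, 22903 and 323 in RYGB-Fail, so that RYGB-Fail did not overlap with the other groups. The 8 genes of the group had a mean difference of 4.17 between RYGB-Fail and Pair-Fed and a range of 1.42 for Neb to 7.38 for Acta1. Neb, nebulin, the ruler of thin filament length, was read by 3 probe sets that disagreed, with differences of 1.42, 3.82 and 4.19, and its reported value is that of the brightest. That probe set had 299.8, 469 and 340.3 in Pair-Fed, 401, 342 and 720.1 in RYGB-Success and 286, 2534 and 1253 in RYGB-Fail, with RYGB-Fail 1 under Pair-Fed.

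The troponin complex, which makes the thin filament respond to calcium, offers 3 fast and slow pairs. Tnnc2, fast troponin C, had 15.7, 82.1 and 88.1 in Pair-Fed, 222, 121 and 555 in RYGB-Success and 12380, 29095 and 346 in RYGB-Fail. Tnnc1, slow and cardiac troponin C, had 69.9, 22.3 and 86.4, then 98.7, 18.4 and 158, and in RYGB-Fail 84.5, 3155 and 263. The fast form was at least 139-fold over Pair-Fed on RYGB-Fail 1 and at least 327-fold on RYGB-Fail 2. The slow form was at the floor on RYGB-Fail 1 and at least 35.5-fold over Pair-Fed on RYGB-Fail 2.

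Tnni2, fast troponin I, the inhibitory subunit, had 145, 163 and 78.3 in Pair-Fed, 138, 224 and 345 in RYGB-Success and 5803, 25289 and 507 in RYGB-Fail. Tnni1, slow troponin I, had 11.2, 68.4 and 9.69, then 15.7, 44.8 and 145, and in RYGB-Fail 32.6, 1993 and 62.3. The slow form exceeded every Pair-Fed array on RYGB-Fail 2 only, whereas the fast form did so on all 3 RYGB-Fail arrays.

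Tnnt3, fast troponin T, which anchors the complex to tropomyosin, had 243, 390.2 and 879 in Pair-Fed, 251, 344 and 445 in RYGB-Success and 8376, 28012 and 755 in RYGB-Fail. Tnnt1, slow troponin T, had 90.2, 99.7 and 63, then 106, 9.73 and 33.6, and in RYGB-Fail 359.9, 4470 and 208. Tnnt1 was the slow form whose 3 RYGB-Fail arrays all exceeded Pair-Fed, and Tnnt3 overlapped on the third array because Pair-Fed 3 was itself high.

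**Figure D2:**
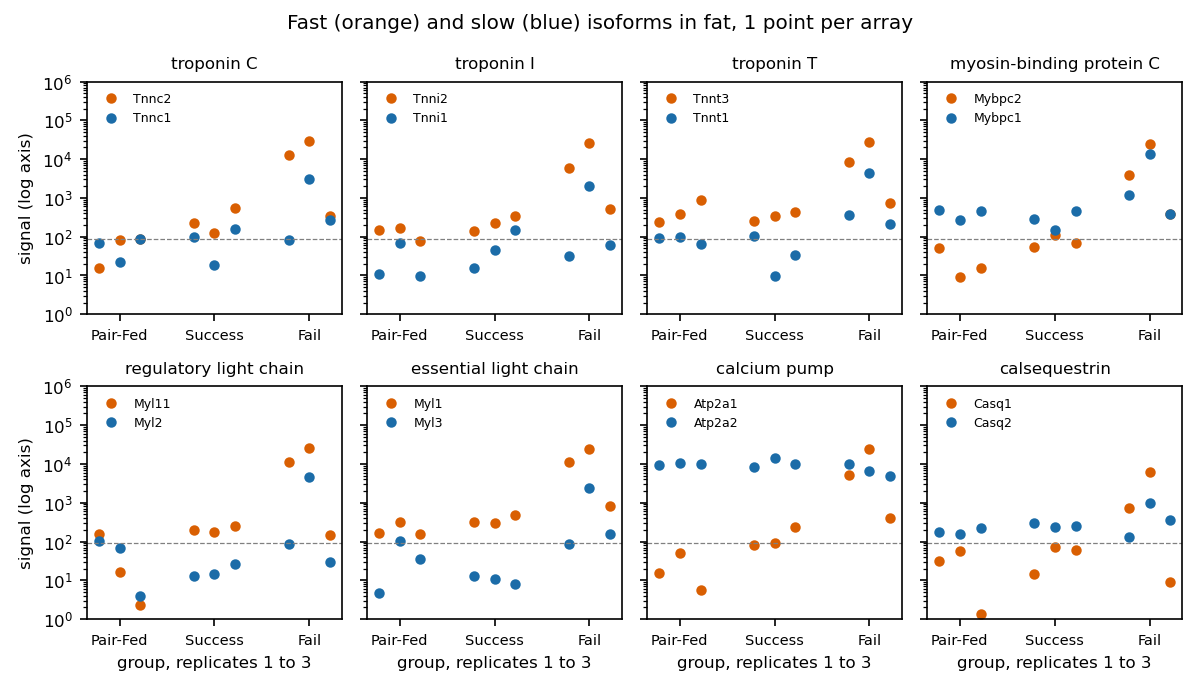
Signal (log axis) of the fast isoform (orange) and slow isoform (blue) of 8 proteins on the 9 fat arrays, replicates 1 to 3 from left to right within each group, with a dashed line at 88.9. Within a gene, RYGB-Fail 1 is high for the fast forms of all 8 pairs, and RYGB-Fail 2 is high for both forms of all pairs but the calcium pump, whose slow form Atp2a2 is bright everywhere; levels of different probe sets are not compared.

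Z disc and scaffold genes anchor and align the filaments, and their mean RYGB-Fail minus Pair-Fed difference was 4.62. In 9 of these 10 genes the RYGB-Fail arrays all lay above the Pair-Fed arrays, beside 2.87% of all probe sets, in the contrast that chose them. Myoz1, a Z disc protein of fast fibres, had 4.40, 4.55 and 3.29 in Pair-Fed, 57.9, 48.6 and 149 in RYGB-Success and 1807, 10119 and 142 in RYGB-Fail. Its log2 difference of 8.41 ± 1.52 from Pair-Fed was the highest of the 42 genes, but with signals held at 88.9 it was 3.95, because all Pair-Fed signals lay far under that value. Smpx, a small stretch-responsive muscle protein, had 3.83, 58 and 5.50 in Pair-Fed and 369, 6631 and 133 in RYGB-Fail. Actn3, the fast fibre alpha-actinin, had 107, 169 and 31.7 in Pair-Fed and 1059, 18064 and 275 in RYGB-Fail. Ttn, titin, the spring of the sarcomere, had 101, 53.7 and 101 in Pair-Fed and 2106, 10944 and 519 in RYGB-Fail.

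Ldb3, a Z disc adaptor, was the exception in this group. Its brightest probe set had 2100, 1067 and 2431 in Pair-Fed, 492, 551 and 453 in RYGB-Success and 2180, 15600 and 873 in RYGB-Fail. RYGB-Fail 1 thus lay within the Pair-Fed range, RYGB-Fail 2 far above it and RYGB-Fail 3 below it, and all RYGB-Success arrays lay below Pair-Fed by a mean of -1.82. The 6 Ldb3 probe sets had RYGB-Fail minus Pair-Fed differences of 0.36 to 5.08. The remaining scaffold genes were Actn2, Myot, Tcap and Klhl41. Actn2, an alpha-actinin of all fibres, had 8.86, 5.91 and 8.02 in Pair-Fed and 142, 3328 and 28.9 in RYGB-Fail. Myot, myotilin of the Z disc, had 3.89, 51.5 and 41 against 473, 10290 and 208. Tcap, telethonin, which caps titin, had 120, 120 and 71.4 against 598, 10180 and 326. These were without overlap, as was Klhl41, a sarcomere assembly protein, with 48.1, 2.16 and 41.5 against 249, 3856 and 228. Des, desmin, an intermediate filament that smooth muscle also makes, had 242, 148 and 332 in Pair-Fed, 514, 198 and 394 in RYGB-Success and 501, 6258 and 412 in RYGB-Fail.

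Calcium handling genes had a mean difference of 4.30 between RYGB-Fail and Pair-Fed. Atp2a1, the fast calcium pump, had 15.2, 51.1 and 5.68 in Pair-Fed, 80.6, 89.7 and 240 in RYGB-Success and 5121, 24181 and 398 in RYGB-Fail. Its slow counterpart Atp2a2, which is no member and which many cell types use, had 9119, 10400 and 10195 in Pair-Fed, 8099, 14032 and 9859 in RYGB-Success and 9992, 6753 and 4895 in RYGB-Fail. The fast pump was at least 272-fold over Pair-Fed on RYGB-Fail 2. The Atp2a2 probe set given here, its brightest in fat, was lower on RYGB-Fail 2 and RYGB-Fail 3 than on every Pair-Fed array. RYGB-Fail 2 was also a dim array, with a median signal of 98.2 beside 126 to 147 in Pair-Fed.

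Pvalb, parvalbumin, a calcium buffer of fast fibres and of some neurons, had 23, 115 and 5.89 in Pair-Fed, 83.7, 15.4 and 91.6 in RYGB-Success and 7206, 23672 and 21.4 in RYGB-Fail. It was at least 74.4-fold over Pair-Fed on RYGB-Fail 1 and lay inside the Pair-Fed range on RYGB-Fail 3. Casq1, the fast calsequestrin that stores calcium in the reticulum, had 30.8, 57.1 and 1.34 in Pair-Fed, 14.2, 72.6 and 61.4 in RYGB-Success and 743, 6170 and 9.06 in RYGB-Fail, with the third array again inside the Pair-Fed range. Casq2, the slow and cardiac form and no member, had 172, 155 and 220.1 in Pair-Fed, 301, 230.4 and 248 in RYGB-Success and 130, 1003 and 352 in RYGB-Fail.

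Ryr1, the calcium release channel of skeletal muscle, had 179, 190 and 174 in Pair-Fed, 158, 95.1 and 224 in RYGB-Success and 4858, 21523 and 430.3 in RYGB-Fail, without overlap. Cacna1s, the voltage sensor that opens it, had 7.43, 146 and 12.5 in Pair-Fed and 91, 1413 and 65.9 in RYGB-Fail and was high on the second array alone. Sln, sarcolipin, a regulator of the pump, stayed at 13.3 to 134 in Pair-Fed and RYGB-Success and at 249, 149 and 257 in RYGB-Fail, and was the member with a lower signal on RYGB-Fail 2 than on RYGB-Fail 1. Trdn, triadin, which holds calsequestrin near the channel, had 4 probe sets with RYGB-Fail minus Pair-Fed differences of 1.33 to 6.56, and its brightest gave 1.88 from 142, 157 and 78.7 in Pair-Fed, 109, 166 and 152 in RYGB-Success and 112, 1374 and 566 in RYGB-Fail. Cacng1, a subunit of the voltage sensor, had 4.33, 6.94 and 7.66 in Pair-Fed, 54, 45.1 and 77.2 in RYGB-Success and 51.9, 203 and 134 in RYGB-Fail, so that RYGB-Success and RYGB-Fail overlapped and both lay above Pair-Fed at low signals.

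Energy genes supply ATP to the contracting fibre, and they had the highest role mean, at 5.38 over 7 genes with a range of 4.40 for Eno3 to 7.82 for Ckm. Ckm, muscle creatine kinase, had 7.57, 63.7 and 4.22 in Pair-Fed, 13.2, 54.9 and 249 in RYGB-Success and 3792, 23944 and 260.2 in RYGB-Fail. RYGB-Fail 3 lay next to RYGB-Success 3. Pygm, muscle glycogen phosphorylase, had 14, 55.2 and 59.6 in Pair-Fed, 67.6, 4.07 and 100.4 in RYGB-Success and 1351, 12444 and 217 in RYGB-Fail. Eno3, muscle enolase, had 210, 156 and 175 in Pair-Fed, 260, 151 and 347 in RYGB-Success and 4581, 24300 and 485 in RYGB-Fail. Mb, myoglobin, the oxygen store of oxidative fibres, had 65.3, 18 and 10.1 in Pair-Fed and 1716, 10805 and 23.9 in RYGB-Fail, where the third array overlapped with Pair-Fed. In 6 of the 7 energy genes RYGB-Fail did not overlap with Pair-Fed, beside 2.87% of all probe sets. Ckmt2, mitochondrial creatine kinase, had 80.5, 12.7 and 2.31 in Pair-Fed and 115, 2758 and 140.3 in RYGB-Fail. Pgam2, muscle phosphoglycerate mutase, had 18.2, 62.4 and 88 against 1619, 15004 and 249. Ampd1, muscle AMP deaminase, had 97.2, 50.4 and 78.5 against 2425, 23032 and 179. The second RYGB-Fail array was the highest for all 3.

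Fast and slow fibre genes were set side by side as 14 fast and 6 slow members, fibre assignments taken from textbook knowledge. The mean RYGB-Fail minus Pair-Fed difference was 5.63 over the fast genes (median 5.80) and 2.97 over the slow genes (median 3.02). RYGB-Fail arrays all exceeded Pair-Fed arrays in 9 of 14 fast genes and in 1 of 6 slow genes, beside 2.87% of all probe sets. The fast minus slow difference of these means was 2.66 ± 0.91 (SE, 3 arrays a group), 3.08 without Myh1 and 2.41 with signals also held at 88.9. Without RYGB-Fail 1 it was 1.64. Every value here comes from the contrast that chose the members and is a description.

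Single arrays showed 3 different states of the fast and slow genes. Held at 88.9 and without Myh1, the median over Pair-Fed on RYGB-Fail 1 was 5.50 for the fast genes and 0.00 for the slow genes on the log2 scale. On RYGB-Fail 2 it was 7.63 and 5.10, so that slow genes were high there too. On RYGB-Fail 3 it was 1.23 and 0.38. The 3 RYGB-Success arrays had fast medians of 0.00, 0.01 and 0.75 and slow medians of -0.03, -0.06 and 0.10. Without holding, the medians on RYGB-Fail 1 were 6.37 for the fast genes without Myh1 and 1.55 for the slow genes. The slow median of 0.00 there thus depends on the floor. With low signals held, RYGB-Fail 1 was the array on which fast genes stood far over Pair-Fed and most slow genes did not. There 13 of 14 fast genes and 2 of 6 slow genes lay above every Pair-Fed array, beside 15.7% of all probe sets. This count is of signals not centred, and the median signal was 102 on RYGB-Fail 1 beside 126 to 147 on the Pair-Fed arrays. After centring, 37 of 42 members lay above every Pair-Fed array there, beside 36.5% of all probe sets. The slow genes Myl2, Myl3 and Tnnc1 were then among them, so the slow count depends on the scaling. Without holding low signals, RYGB-Success also had fast means over slow means, relative to Pair-Fed, by 1.55, 2.62 and 1.89 with all 14 fast genes, where held values without Myh1 gave 0.17, 0.47 and 0.51.

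**Figure D3:**
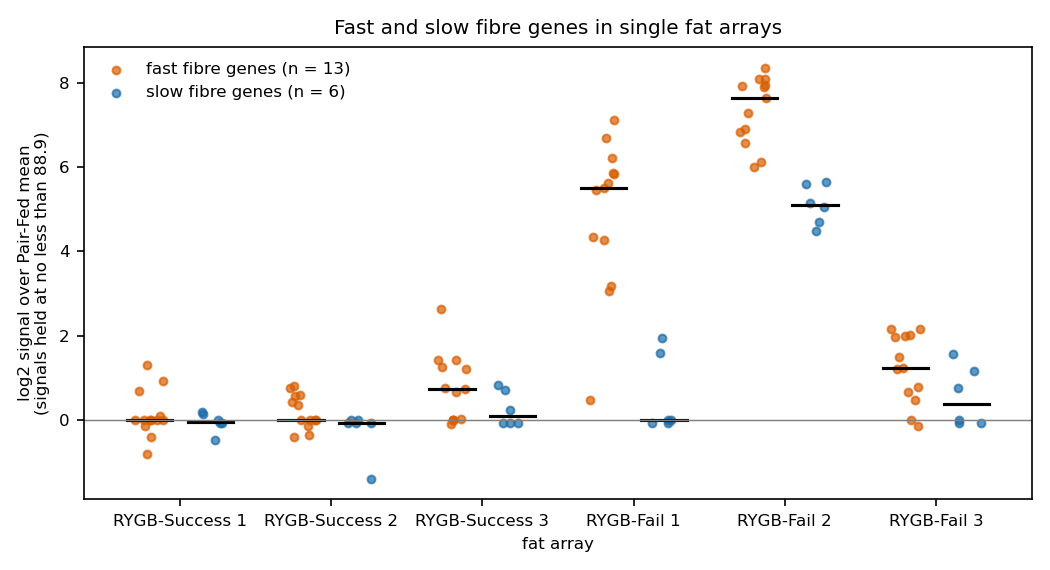
Log2 signal over the Pair-Fed mean of 13 fast fibre genes (orange, without Myh1) and 6 slow fibre genes (blue) on each RYGB-Success and RYGB-Fail fat array, signals held at no less than 88.9, with bars at the medians. RYGB-Fail 1 has a fast median of 5.50 and a slow median of 0.00, and RYGB-Fail 2 has 7.63 and 5.10. Without holding, the RYGB-Fail 1 medians are 6.37 and 1.55.

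The ratio of the second to the first RYGB-Fail array, taken within each gene, does not involve the Pair-Fed arrays. It does use the RYGB-Fail signals by which the members were chosen, so it too is a description. Over 13 fast genes without Myh1 its median was 4.72-fold, from 2.07 for Myl1 to 68.4 for Myh2. Over the 6 slow genes it was 32.9-fold, from 11.1 for Mybpc1 to 61.2 for Tnni1, and 24.6-fold with signals held at 88.9. The 22 members assigned to neither type had a median of 9.24-fold, and all probe sets had 0.926-fold. Within the fast list Actn3, at 17.1-fold, lay in the range of the slow genes, and Myh2 lay above it.

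The upper end of the signal scale moves with this contrast. On RYGB-Fail 2, 47 probe sets exceeded 20000 and 14 of them belonged to members, at 21106 to 29095, among them 9 fast genes and 0 slow genes, and Tnnc2 was the brightest probe set of that array. RYGB-Fail 1 had 22 probe sets over 20000 and 0 of members. In the 4 fast genes that stayed under 20000 on RYGB-Fail 2, the median ratio was 12.7-fold, from 5.60 to 68.4, nearer to the slow genes than that of all fast genes was. Whether bright signals are compressed, which would lower the ratios of the brightest genes, was not tested, as the values carry no saturation mark.

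**Figure D4:**
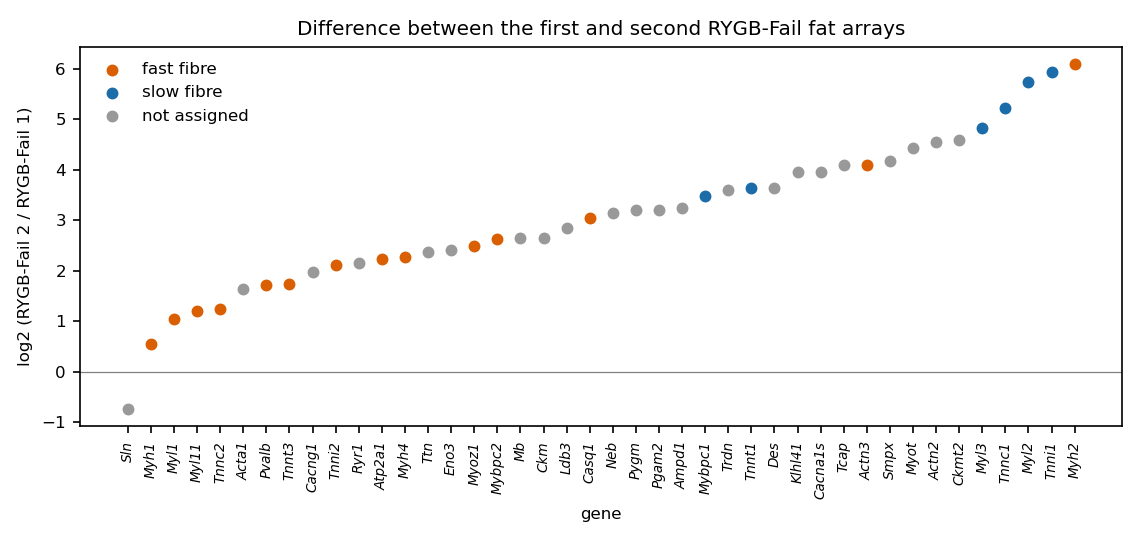
Log2 ratio of the RYGB-Fail 2 to the RYGB-Fail 1 fat signal for each of 42 genes in rising order, with fast fibre genes in orange, slow fibre genes in blue and unassigned genes in grey. The 6 slow genes lie at 11.1-fold to 61.2-fold, in the upper part of the order with Myh2 at its end, and Sln lies below 0.

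RYGB-Success fat differed less from Pair-Fed fat in the members than RYGB-Fail fat did. The mean difference was 0.82 ± 1.27 (SE, 3 arrays a group) with 31 genes higher and 11 lower, 0.20 with signals held at 88.9, and 0.46 without RYGB-Success 3. The pooled SE is wide for this pair, because the RYGB-Fail arrays, which are not in it, differed most from each other. The median was 0.72 beside 0.19 over all probe sets, and centring each array on its median gave a member mean of 0.45. In 9 of 62 member probe sets all RYGB-Success arrays exceeded all Pair-Fed arrays, beside 11% of all probe sets. In 2 of 62, both of Ldb3, they were lower, beside 5.63%. On RYGB-Success 3, the array with the highest member level of its group, Tnnc2 reached 555 and Myl1 reached 484.

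RYGB-Success against RYGB-Fail gave a mean of -3.76 ± 1.27 with 41 of 42 genes lower, and -2.39 without RYGB-Fail 2. All RYGB-Success arrays lay under all RYGB-Fail arrays in 28 of 62 member probe sets, beside 2.33% of all probe sets. The 3 comparisons of fat share their arrays in pairs and are not independent.

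Most of these genes had low signals in hypothalamus. The mean log2 level over the 42 genes ran from 4.79 to 6.16 over the 9 arrays, 27 genes had a geometric mean under 52.7, the lowest mean signal tested there, and 5 had a mean over 200, namely Myh1, Pvalb, Ryr1, Pygm and Tnnc2. Pvalb had 1513, 1357 and 2057 in Pair-Fed, 1812, 2400 and 1870 in RYGB-Success and 1833, 2874 and 2025 in RYGB-Fail. Acta1, by contrast, stayed at 123 to 185, and Atp2a1, Ckm and Myh4 had means under the lowest signal tested. The high RYGB-Fail fat values had no counterpart in RYGB-Fail hypothalamus, where the member level was 5.43, 4.79 and 5.28 beside 5.41, 5.28 and 5.36 in Pair-Fed.

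No member passed the tests in hypothalamus. With limma over 18625 probe sets and Benjamini-Hochberg adjustment, 0 of 19 tested member probe sets (15 genes) passed an adjusted p of 0.05 in RYGB-Fail against Pair-Fed, RYGB-Success against Pair-Fed or RYGB-Success against RYGB-Fail, where 0%, 0.0107% and 0.00537% of all probe sets passed. At an unadjusted p under 0.05 there were 1, 0 and 0, beside 2.39%, 13.1% and 6.01% of all probe sets. The probe set with the lowest p was that of Ryr1, at 178, 472 and 560 in Pair-Fed and 106, 136 and 239 in RYGB-Fail, a limma log2 difference of -1.26 ± 0.43 (SE) with an adjusted p of 1.00. It was followed by Smpx, at 111, 91.4 and 64.6 in Pair-Fed and 141, 190 and 125 in RYGB-Fail, with 0.79, and Pvalb with 0.45, both at a limma adjusted p of 1.00. In RYGB-Success against Pair-Fed, Tnnc2 had -0.82, Sln -0.77 and a Myh1 probe set 0.37, with limma adjusted p of 0.45, 0.46 and 0.49. In RYGB-Success against RYGB-Fail, Tnnc2 had -0.88, Ryr1 0.86 and Sln -0.83, all at a limma adjusted p of 0.78. These misses do not show that the levels were equal.

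Other skeletal muscle genes, taken from 4 lists of 87 genes that hold none of the members, had 80 genes and 128 probe sets on the array. Of 62 tested probe sets 0 passed in RYGB-Fail against Pair-Fed fat with limma, beside 0% of all 18625, and 23 had an unadjusted p under 0.05 with a higher mean and 0 with a lower one, beside 1.42% of all probe sets. By list, 11 of 27 tested probe sets of the further sarcomere genes were among these 23, 6 of 16 of the excitation and calcium genes, 6 of 15 of the energy genes and 0 of 4 of the myogenic regulators. The array weights of limma, which were 0.175 for RYGB-Fail 3 and 0.482 for RYGB-Fail 2 and reached 1.89 on the other fat arrays, gave 8 passes among 35 over all 18625 probe sets, and 10 passed without RYGB-Fail 3, among 44. Without RYGB-Fail 2, 52 of the other muscle probe sets were tested with limma and 0 passed. An unadjusted p under 0.05 was then found for 10, beside 354 of all 18625. The filter used the mean over all fat arrays, so dim probe sets could enter through high RYGB-Fail signals. These genes were read on the same arrays as the members, and their lists were chosen with earlier results known, so nothing is read from these counts.

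The 34 further sarcomere genes on the array had mean log2 signals of 6.23 to 6.48 in Pair-Fed and of 7.52, 10.11 and 7.31 in RYGB-Fail. Tpm1, a tropomyosin that covers actin, had a probe set at 6.80, 11.1 and 6.61 in Pair-Fed and 5483, 23625 and 17.9 in RYGB-Fail. Tpm2, another tropomyosin, had a probe set at 17.5, 105 and 52 against 4991, 22760 and 130. The probe sets of both genes disagreed, with differences of -0.90 to 7.38 for Tpm1 and of 0.43 and 5.75 for Tpm2. Nrap, an anchor of actin, had 64.2, 5.01 and 7.67 in Pair-Fed and 242, 3096 and 158 in RYGB-Fail. Myoz3, a Z disc protein, had 77.7, 177 and 43.3 against 1563, 13285 and 255, and 1.60 as the difference of its dimmer probe set.

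Myh7, the slow heavy chain, was looked up after its values were seen. It had a probe set at 2.82, 14.6 and 17.8 in Pair-Fed and 53.2, 2042 and 18.6 in RYGB-Fail, far above the rest on the second array alone, while its other probe set had 39.1, 39.5 and 159 in RYGB-Fail and a difference of -0.19. Ankrd1, a stress-responsive muscle protein, had the lowest difference of this list, -2.93, on a probe set at 80.3, 40.3 and 92.9 in Pair-Fed and 2.08, 5.53 and 59.5 in RYGB-Fail, and 0.59 on its brighter probe set.

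Jph1, which joins the surface and reticulum membranes, had 109, 129 and 92.6 in Pair-Fed and 733, 9529 and 452 in RYGB-Fail. Hrc, a calcium-binding protein of the reticulum, had 53.3, 43.1 and 48.3 in Pair-Fed and 356, 5360 and 123 in RYGB-Fail. Both were without overlap, and neither passed the test. Jsrp1, a reticulum protein, had 209, 4526 and 11.1 in RYGB-Fail, and Kcnj11, a potassium channel, had probe sets with differences of -0.07 to 3.26, both with overlap. The lowest value of that list was -1.18, on a dim probe set of Atp2a2. Prkag3, a muscle AMP kinase subunit, had 261, 5106 and 108 in RYGB-Fail with a difference of 5.75, and Apobec2, a muscle deaminase-like protein, had 327, 2990 and 77.8 with 4.43. Among the energy genes Cox8b, a muscle subunit of cytochrome oxidase, had 57, 41.5 and 63 in Pair-Fed and 747, 13650 and 199 in RYGB-Fail, and Cox6a2, another such subunit, had 11.9, 93.6 and 56.7 against 573, 11068 and 45.7, where RYGB-Fail 3 overlapped. Cox7a1, a further subunit, had the lowest value of the list at -1.09.

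Myogenic regulators switch on the muscle programme. Myod1 had 14.1, 47.5 and 16.2 in Pair-Fed, 17.3, 16.1 and 112 in RYGB-Success and 449, 6734 and 140 in RYGB-Fail, and its probe set fell short of the filter and was not tested. Myf6, the regulator most abundant in adult fibres, had 43.2, 311 and 172 in Pair-Fed and 124, 2980 and 584 in RYGB-Fail, and Myog, myogenin, had 51, 107 and 47.4 against 107, 1017 and 20.5. Both overlapped between the groups, and the probe sets of Mef2c had differences of 0.13 and 0.41.

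Markers of other cell types had smaller mean differences. The mean RYGB-Fail minus Pair-Fed difference was 0.04 over 7 heart genes, 0.16 over 9 smooth muscle and pericyte genes, -0.25 over 7 brown fat genes, -0.42 over 8 adipocyte genes, -0.80 over 6 fibroblast genes and -0.46 over 7 macrophage genes. It lay between -0.62 and 0.30 for the epithelium, blood, lymphocyte, endothelium, nerve sheath and neuron lists. Heart genes had mean log2 signals of 4.63 to 5.08 in Pair-Fed, 5.29 to 6.65 in RYGB-Success and 3.87 to 5.99 in RYGB-Fail, with 4.70 on RYGB-Fail 2.

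On RYGB-Fail 2, where Tnnc1 and Myl3, which heart and slow muscle share, were high, the mean log2 signal of the 7 heart genes was 4.70. A heart source was not tested. The adipocyte list stood at 11.26, 10.73 and 12.29 on the RYGB-Fail arrays and at 11.63 to 12.29 in Pair-Fed. On the RYGB-Success arrays it was 11.76, 11.76 and 11.03. It was lowest on RYGB-Fail 2, while RYGB-Success 3 lay under RYGB-Fail 1. Adipoq, adiponectin, had 25647, 39668 and 29888 in Pair-Fed and 17271, 18123 and 60117 in RYGB-Fail, so that the tissue marker of fat was bright on every array. In 4 of 6 fibroblast genes the RYGB-Fail arrays all lay under the Pair-Fed arrays, beside 3.98% of all probe sets. The RYGB-Success arrays did so in 6 of 6, beside 5.63%, with a mean difference from Pair-Fed of -1.29, so the lower fibroblast signals were not particular to RYGB-Fail. In bulk tissue, fewer cells of a type and less RNA per cell cannot be told apart, and the part of these lists in the muscle values was not tested.

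**Figure D5:**
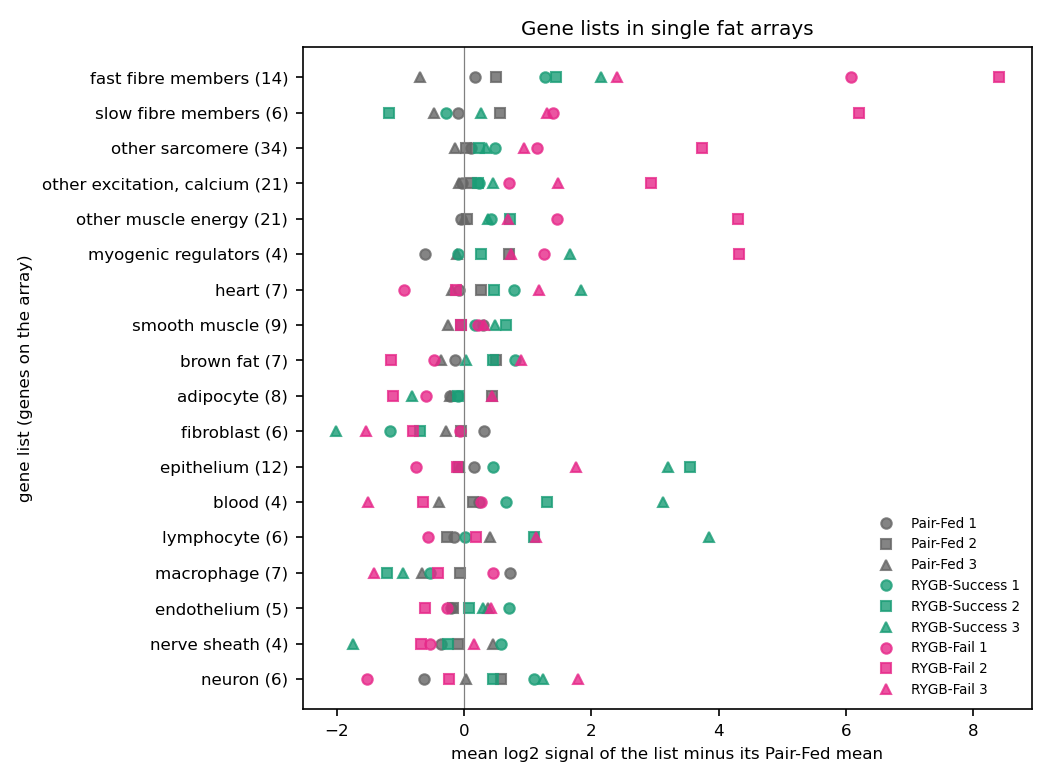
Mean log2 signal of each gene list on the 9 fat arrays minus the list's Pair-Fed mean, with the number of genes on the array in brackets, group by colour and replicate by marker shape. RYGB-Fail 2 is far to the right for the 2 member lists and the 4 other muscle lists and near the Pair-Fed arrays or to their left for the other cell types, and the epithelium, blood and lymphocyte lists are high on some RYGB-Success arrays.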

How the data were processed

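RNA of subcutaneous abdominal fat and hypothalamus was extracted with Qiagen RNeasy and labelled with biotin through Nugen WT Ovation, per the labels. The deposited values are linear intensity signals, 1 per probe set, for which the submitters' processing notes name MAS5 and GCOS as the authors' software, with versions and settings not given in the sources used here. Their mean after trimming 2% at each end was 500.00 on all 18 arrays, so the authors had already scaled them. This scaling leaves medians free to differ.

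Of 31099 probe sets, 57 controls were left out. The platform annotation gave 1 symbol for 20826 probe sets, several for 436 and none for 9780. Of the probe sets with 1 symbol, 20764 had their gene in the RefSeq table of GRCr8. Signals were put on the log2 scale without a pseudocount. The gene value is that of its probe set with the highest mean log2 signal in fat; 33 members had 1 probe set and 9 had several. The members and all gene lists were chosen with earlier results of these data known.

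For tests, the brightest 60% on average were kept in each tissue (18625 probe sets), among them 39 member probe sets in fat and 19 in hypothalamus. limma 3.58.1 in R 4.3.3 was fitted to all 9 arrays of a tissue with an intensity trend and Benjamini-Hochberg adjustment at 0.05. The procedure was tested on simulated data. The precision is limited by 3 arrays a group, and p-values measure the spread between these samples. Values on every array were to be named for the fast and slow pairs, for the 2 members of each role with the largest and the 1 with the smallest RYGB-Fail minus Pair-Fed difference, for up to 4 genes of each other muscle list with the largest and 1 with the smallest, for the 8 other tested genes with the largest, and in hypothalamus for the 3 members with the lowest p and the brightest. Further members and Myh7 were added after their values were seen. Alternatives were a pseudocount, quantile normalization, median centring, held low signals, all probe sets of a gene, other filters, array weights, a replicate block and each array left out. Values without Myh1, and counts after median centring by array, were added after seeing the data. Figures used Python 3.11.15 and matplotlib 3.10.9.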

Additional observations from a re-analysis of the deposited data

How the results depend on the processing

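The direction of the mean member differences in fat and of the fast minus slow difference was the same under every alternative run. The RYGB-Fail minus Pair-Fed member mean of 4.58 ranged from 3.16 with a pseudocount of 10% of the mean signal to 4.69 without Myh1, and from 3.21 to 5.78 when each array was left out in turn. RYGB-Success minus Pair-Fed ranged from 0.46 to 1.06, RYGB-Success minus RYGB-Fail from -4.96 to -2.39 and fast minus slow from 1.64 to 3.44 in that way. Of 42 single-gene differences, 11 moved by more than 1 SD with signals held at 88.9 and 9 with the pseudocount, among them Myh2, Mybpc2, Myoz1, Atp2a1 and Ckm, while 2, Neb and Trdn, moved when a gene's probe sets were averaged. Myh1 turned to -0.24 without RYGB-Fail 3 and Ldb3 to -0.35 without RYGB-Fail 2. The count of other muscle probe sets passing in fat was 0, 8 with array weights and 0 to 10 when arrays were left out, the 10 without RYGB-Fail 3. The fit of the tissue difference between the RYGB-Fail minus Pair-Fed contrasts had 0 of 18 passing members and 6 with array weights, where 12 of all 15531 probe sets passed, and since its fat side chose the members these calls are no test and nothing is read from them. In hypothalamus 0 members passed under every alternative. With the replicate number as a block, the member mean stayed at 4.58 with an SE of 1.32 in place of 1.27. Arrays with the same number correlated at -0.13 to 0.29 in fat, with 6 of 9 closest to an array of their own number, and at -0.16 to 0.07 in hypothalamus, with 3 of 9, and the labels give the numbers no shared source, so the numbers were not taken as pairs. Low signals, most of the Pair-Fed values, limit the size of the folds, and 3 arrays a group that differ as much as the RYGB-Fail arrays do limit every mean.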

Other observations

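Beyond the members and the muscle lists, the 8 named genes with the largest RYGB-Fail minus Pair-Fed differences in fat among those tested were highest on RYGB-Fail 2. Of the 50 named probe sets with the largest difference among those tested, 23 were members, 13 belonged to the other muscle lists and 14 to neither. Of all 18625 tested probe sets, 39 were of members and 62 of the other muscle lists. This contrast chose the members, so nothing is read from this count. Mlf1, a myeloid leukaemia factor gene, had 106, 45.9 and 5.36 in Pair-Fed and 1304, 15580 and 170 in RYGB-Fail. Hjv, hemojuvelin, an iron regulator made in skeletal muscle and liver, had 65.7, 92.6 and 59.6 in Pair-Fed and 1676, 16383 and 308 in RYGB-Fail. Sypl2, mitsugumin, a membrane protein of the muscle triad, had 34.2, 26.1 and 35.2 against 363, 6591 and 246. All 3 RYGB-Fail arrays exceeded Pair-Fed for these genes, and the second was the highest. Sh3bgr had a log2 difference of 5.06, Smtnl2 of 4.70, Ddit4l of 3.93, Mafa of 3.76 and 2310002L09Rikl of 3.70. They were picked for their difference in the same contrast and are given as a description; with limma the adjusted p was 0.92 for Hjv and Smtnl2, 0.98 for Sypl2 and 1.00 for the other 5.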
